A study of Mus musculus with 17 samples.

Results

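The genes described here are 48 genes of DNA replication and replication-fork repair, chosen by symbol from a fixed list, out of 26422 genes listed in the single-cell count tables of mouse intestinal organoids. All 48 were found. The tables come from 17 Seq-Well S3 libraries, in which single cells were captured on barcoded beads in wells and transcripts were counted by unique molecular identifiers (UMIs). Organoids were grown from small intestinal crypts of C57BL/6 mice that carried no engineered allele (wild type), male and female and 1 to 6 months old, and every library pooled cells of many organoids, so a library is not an animal. Both culture media were built on ENR (EGF, Noggin and R-spondin 1) with CHIR99021 (C), an inhibitor of GSK3 that raises Wnt signalling.

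At day 0, 2 libraries came from ENR+CV, in which valproic acid (V) is added and stem cells are enriched. From day 0.25 to day 6, 7 control libraries came from ENR+CD, in which DAPT (D), an inhibitor of Notch activation, replaces valproic acid and the organoids differentiate towards Paneth cells. Another 8 libraries came from ENR+CD with 160 nM KPT-330, an inhibitor of the nuclear exporter XPO1. Days 0.25, 1, 2, 3, 4 and 6 had 1 library per condition, except for 2 KPT-330 libraries at day 3 and 2 libraries of each condition at day 6. What the replicate numbers stand for is not given in the labels, so p-values for genes measure only the spread between these libraries. Cycling cells were taken as those with at least 1 UMI of Mki67, a nuclear protein of proliferating cells that is not among the 48 genes. They numbered 5630 of the 19877 cells, between 48 and 1220 per library.

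Before a cell can divide it must copy its genome once. Origins are licensed in G1, when ORC, CDC6 and CDT1 load the MCM2-7 helicase onto DNA. In S phase CDC45 and GINS join MCM to form the CMG helicase, which opens the fork. DNA polymerases then copy both strands behind it, helped by the sliding clamp PCNA, by single-strand binding proteins and by a supply of deoxynucleotides. A checkpoint of ATR, claspin and CHK1 slows S phase when forks stall, and BRCA1, BRCA2 and EXO1 act on damaged forks. Many of these genes are targets of E2F transcription factors in the late G1 and S phases. In the intestine such cells belong to the crypt, where stem and progenitor cells divide rapidly, whereas mature Paneth cells do not divide.

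The libraries held 3458887 to 12433109 UMIs and 531 to 1547 cells, with a median of 2676 to 8463 UMIs per cell, and 14 cell barcodes occurred in more than 1 library. The epithelial label fits the markers: Epcam, Cdh1, Krt8, Krt18, Krt19, Vil1 and Cldn7 were all detected, with a summed level of 4193 to 5251 CPM (a gene's UMIs scaled to 1000000 UMIs per library) in control and 3783 to 5195 with KPT-330. Of the immune markers, Tyrobp was at 0 over all cells and Ptprc, Cd3e and Cd79a had 2 to 4 UMIs, but Cd68 had 152 and Lyz2 2277. Of the fibroblast markers, Col1a1, Col1a2, Col3a1, Dcn and Pdgfra had 5 to 43 UMIs and Vim 5423. The endothelial markers Cdh5, Kdr, Pecam1 and Vwf had 6 to 129. Over all libraries a member had between 509 UMIs (Pole2) and 15484 UMIs (Rfc1), and in Mki67-positive cells between 382 (Pole2) and 6983 (Rrm1). In those cells 4 of the 48 members had a differentiating library at 0, and levels there rest on few molecules.

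The promoters of some of these genes are shown because the members moved together in the comparisons below and because several carry the same short word. RefSeq (GRCm38.p6) promoters, from 250 bases before to 50 bases after the start of transcription, were at hand for 40 of the 48 genes, as 45 promoters. They were searched on both strands for 4 E2F-type words, TTTGGCGC, TTTCCCGC, TTTGCCGC and TTTCGCGC, which may overlap each other. A word was found in 16 of the 45 promoters (35.6%), against 744 of all 32851 promoters (2.26%). Among 35 promoters of mitosis genes 3 held one (8.57%). The first 5 sequences below belong to genes that were lower with KPT-330 and hold a word in the 180 bases before the start. Rfc1 was the member with the highest fold change and holds none. These were picked after their values were seen. Each runs 5′ to 3′ along the gene's strand and ends at the base before the RefSeq start, with the matching words in capitals.

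Pola1 promoter (chrX:93632156-93632335, − strand): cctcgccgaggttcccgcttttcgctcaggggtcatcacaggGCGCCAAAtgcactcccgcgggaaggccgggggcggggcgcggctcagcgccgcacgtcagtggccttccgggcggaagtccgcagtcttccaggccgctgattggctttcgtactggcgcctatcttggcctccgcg
Cdc6 promoter (chr11:98907971-98908150, + strand): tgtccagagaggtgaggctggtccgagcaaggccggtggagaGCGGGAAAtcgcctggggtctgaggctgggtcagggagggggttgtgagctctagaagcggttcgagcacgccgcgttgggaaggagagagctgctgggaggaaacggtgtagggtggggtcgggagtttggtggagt
Mcm5 promoter (chr8:75109329-75109508, + strand): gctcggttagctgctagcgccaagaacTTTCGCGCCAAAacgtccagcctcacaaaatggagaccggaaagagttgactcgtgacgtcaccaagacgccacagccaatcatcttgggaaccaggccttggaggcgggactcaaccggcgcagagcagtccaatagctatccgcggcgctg
Brca2 promoter (chr5:150522441-150522620, + strand): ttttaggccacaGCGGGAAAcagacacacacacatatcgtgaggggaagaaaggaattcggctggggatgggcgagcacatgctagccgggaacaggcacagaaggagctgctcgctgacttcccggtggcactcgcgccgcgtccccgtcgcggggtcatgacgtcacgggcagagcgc
Mcm6 promoter (chr1:128359706-128359885, − strand): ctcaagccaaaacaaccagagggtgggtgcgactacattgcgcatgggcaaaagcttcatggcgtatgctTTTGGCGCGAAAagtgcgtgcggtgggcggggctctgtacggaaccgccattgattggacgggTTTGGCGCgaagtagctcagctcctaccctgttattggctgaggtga
Rfc1 promoter (chr5:65335640-65335819, − strand): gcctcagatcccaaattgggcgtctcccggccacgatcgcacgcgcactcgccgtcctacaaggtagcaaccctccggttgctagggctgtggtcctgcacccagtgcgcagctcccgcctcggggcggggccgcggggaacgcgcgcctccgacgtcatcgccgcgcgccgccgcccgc

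Counted from the RefSeq start of transcription, the word begins at position −138 in both the Pola1 and Cdc6 promoters and at −168 in that of Brca2. In the Mcm5 promoter a pair of words on opposite strands, at −153 and −149, overlap. Mcm6 had 3 matches, at −110, −106 and −47, of which the first pair overlap. A match is a word in a sequence and does not show that a factor binds there.

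In Mki67-positive cells, replication genes were lower with KPT-330. Summed UMIs were compared across the 15 differentiating libraries in edgeR, with a term for time point, and 22 of the 48 members fell, none rose and 26 did not pass the test (adjusted p below 0.05). Over all 10485 genes tested, 1.76% fell and 4.15% rose. The median log2 fold change of the members was −0.57, while that of all genes was −0.009. The falls that passed the test ran from −0.46 (Pcna) to −1.16 (Brca1). In all cells together, 37 of 48 members fell, none rose and 11 did not pass, against 14.2% of 12812 genes that fell and 14.4% that rose. There the median of the members was −0.69 and that of all genes −0.002. At an unadjusted p below 0.05 no member was higher in either fit, and DESeq2 called none higher. The Mki67-positive cells are also among all cells, so the comparisons are not independent of each other. From day 3 on, a larger part of the Mki67-positive cells was rich in Paneth transcripts with KPT-330, as counted further on. The part of this difference in the result was not tested. Because counts were summed over cells, fewer cells with a transcript and fewer transcripts per cell cannot be told apart.

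**Figure D1:**
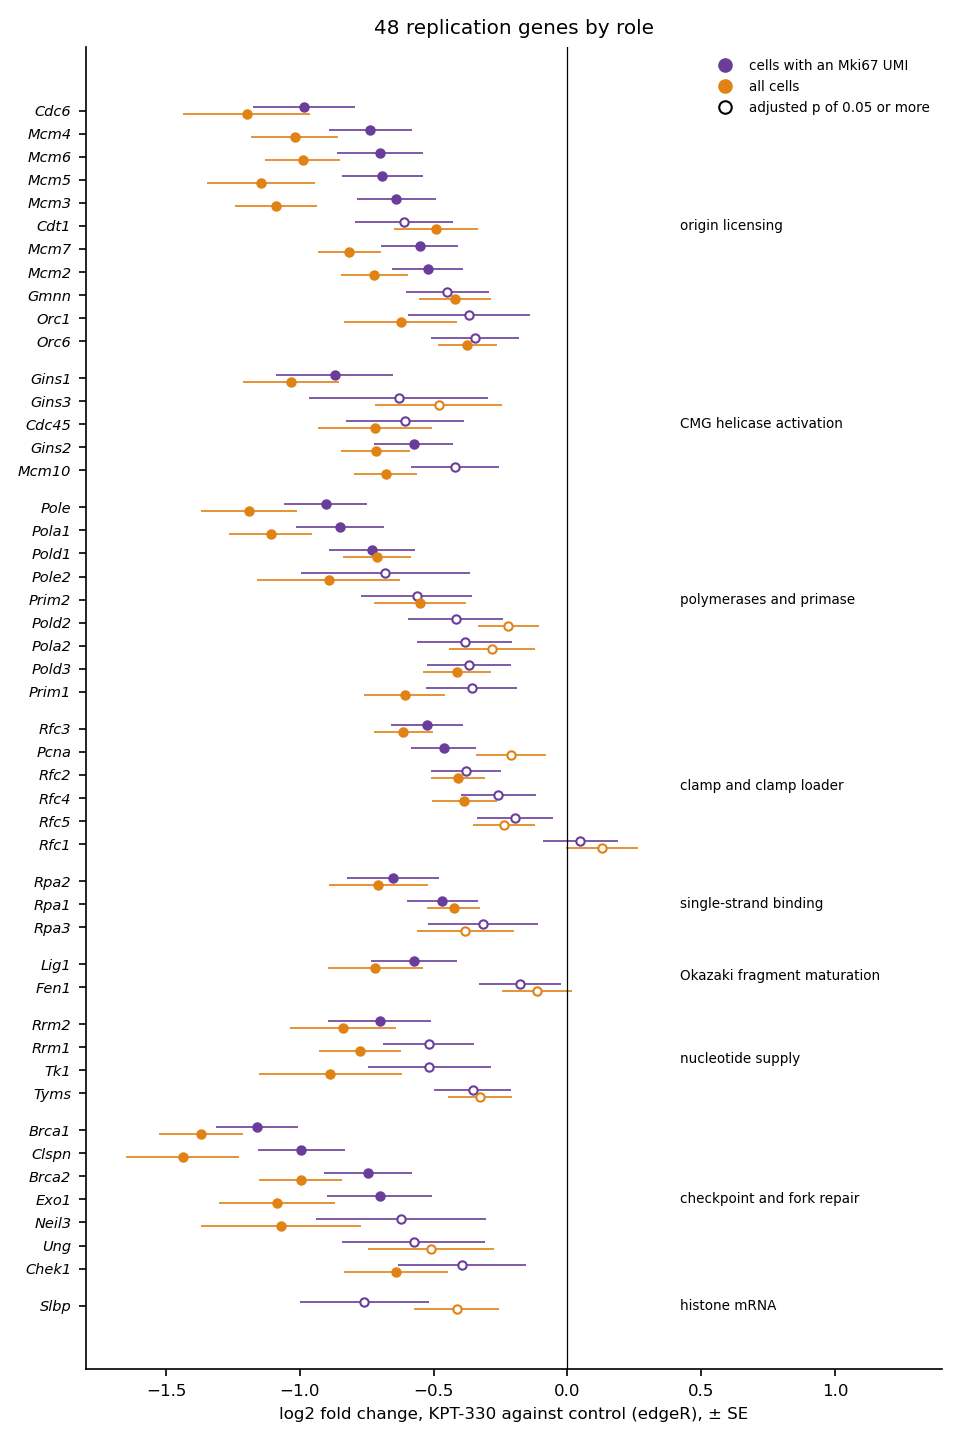
Log2 fold change of each of the 48 genes with KPT-330 against control (x axis, edgeR, bars ± SE), grouped by role, in Mki67-positive cells (purple) and in all cells (orange). Filled points passed an adjusted p of 0.05. All points but those of Rfc1 lie left of 0, with Brca1 at −1.16 in Mki67-positive cells and Clspn at −1.44 in all cells furthest left.

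Markers of cell types moved with the treatment in the same libraries. Of 10 Paneth genes, 8 were higher and 1 (Defa26) lower with KPT-330 in all cells, and 7 were higher in Mki67-positive cells. None of the 10 was at 0 over the differentiating libraries of either condition. Their summed level in Mki67-positive cells ranged from 2845 to 96498 CPM in control and from 4417 to 164256 with KPT-330. Over all cells, 3 of 7 epithelial genes were also higher. Of the immune list 1 of 6 genes was higher (Lyz2, 1.23), and the list summed to 4.01 to 32.6 CPM in control and 4.60 to 71.3 with KPT-330. Of the fibroblast list 1 of 6 was lower (Vim, −1.45), with 13.3 to 118 against 10.2 to 48.1. Of the endothelial list 2 of 4 were lower, and the list was below 5 CPM in each of these libraries. The part of these markers in the result was not tested. Values of the replication genes outside the Paneth-rich cells are given further on.

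Values per library are given in the order of days 0.25, 1, 2, 3, 4 and 6, with 2 control libraries at day 6 and 2 KPT-330 libraries at days 3 and 6. They are CPM of the cells named, a level that is compared between libraries and not between genes. Fold changes are log2 values from edgeR, with p adjusted over all genes tested. The ± SE is approximate: the size of the fold change over the square root of the F statistic of its test. Gene positions are those of the GENCODE annotation of GRCm38, whose starts can differ from the RefSeq starts used for the promoters. The stretch printed for Cdc6 lies inside the gene as positioned by GENCODE, and that for Rfc1 lies partly inside it.

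Origin licensing was the role with the most members, and all 11 of them fell in all cells (median −0.82), while 7 fell in Mki67-positive cells (median −0.61). CDC6 is the ATPase that loads MCM onto DNA together with ORC and CDT1. In Mki67-positive cells Cdc6 (chr11:98907801-98923940), whose promoter is printed above, stood at 21.1, 27.6, 15.8, 15.7, 21.0, 26.7 and 22.7 CPM in control and at 7.59, 16.7, 8.54, 8.79, 6.67, 6.87, 10.005 and 7.3997 with KPT-330. Levels with KPT-330 lay below control at every time point, and the day 1 library was the highest of the treated ones. Its log2 fold change was −0.98 ± 0.19 (adjusted p = 0.00564). Mcm4 (chr16:15623897-15637400), a subunit of the helicase ring, stood at 129, 119, 76.6, 77.1, 81.5, 77.7 and 129 in control and at 47.0, 82.8, 47.0, 47.6, 26.7, 37.8, 57.5 and 59.2 with KPT-330. Again the conditions did not overlap at any time point, and the change was −0.74 ± 0.15 (adjusted p = 0.00869). The other subunits of the ring fell too, by 0.70 (Mcm6), 0.69 (Mcm5), 0.64 (Mcm3), 0.55 (Mcm7) and 0.52 (Mcm2) on the log2 scale, and all subunits of the ring passed the test in all cells too. The adjusted p of these 5 subunits ran from 0.0117 (Mcm5) to 0.0278 (Mcm7).

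Mcm3, Mcm6 and Mcm7 of the ring were among the members with the smallest p in all cells. Mcm3 stood there at 130.0, 74.1, 37.9, 28.9, 37.1, 28.3 and 35.8 CPM in control and at 53.0, 46.5, 17.5, 13.3, 6.41, 7.58, 11.9 and 12.2 with KPT-330, and fell by 1.09 ± 0.15 (adjusted p = 0.000527). Mcm6 went from 191, 115, 49.7, 46.9, 59.7, 42.8 and 45.1 in control to 83.8, 71.1, 33.5, 21.6, 14.6, 12.1, 15.2 and 16.5 with KPT-330, a change of −0.99 ± 0.14 (adjusted p = 0.000545). Mcm7 went from 164, 93.4, 52.2, 41.4, 50.9, 38.1 and 45.8 to 67.6, 66.2, 30.8, 23.9, 15.6, 17.1, 15.003 and 20.5, a change of −0.82 ± 0.12 (adjusted p = 0.000553). Each was highest at day 0.25 in both conditions, fell away with differentiation and was lower with KPT-330 within every time point.

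The remaining licensing genes passed the test in all cells and not in Mki67-positive cells. Cdt1, the loading partner of CDC6, had a log2 fold change of −0.61 ± 0.18 (adjusted p = 0.0576) in Mki67-positive cells, close to the threshold, and −0.49 ± 0.16 (adjusted p = 0.0319) in all cells. Gmnn encodes geminin, which inhibits CDT1 after origins have fired, and had −0.45 ± 0.15 (adjusted p = 0.0925) and −0.42 ± 0.14 (adjusted p = 0.0332). For the origin recognition subunits the values were −0.35 ± 0.17 (adjusted p = 0.229) and −0.37 ± 0.11 (adjusted p = 0.0228) for Orc6 and −0.37 ± 0.23 (adjusted p = 0.371) and −0.62 ± 0.21 (adjusted p = 0.0417) for Orc1. Loader and inhibitor thus had the same sign.

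Of 5 genes of CMG helicase activation, 2 fell in Mki67-positive cells and 4 in all cells (medians −0.61 and −0.72). The pair in Mki67-positive cells were subunits of GINS, which holds the helicase together: Gins1 with −0.87 ± 0.22 (adjusted p = 0.024) and Gins2 with −0.57 ± 0.15 (adjusted p = 0.027). Gins1 levels were between 14.6 and 28.0 CPM in control (median 19.7) and between 4.44 and 13.7 with KPT-330 (median 10.9), without overlap between the conditions. Cdc45, the third partner of the helicase, had −0.61 ± 0.22 (adjusted p = 0.112) in Mki67-positive cells and −0.72 ± 0.21 (adjusted p = 0.0227) in all cells. Mcm10, which helps to open origins, had −0.42 ± 0.16 (adjusted p = 0.135) and −0.68 ± 0.12 (adjusted p = 0.00151). Gins3, one of the least counted members, passed in neither (−0.63 ± 0.33, adjusted p = 0.285 and −0.48 ± 0.24, adjusted p = 0.141).

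Among 9 polymerase and primase genes, 3 fell in Mki67-positive cells and 7 in all cells (medians −0.56 and −0.61). Those 3 encode the catalytic subunits of the replicative polymerases: Pole of the leading-strand polymerase epsilon, Pold1 of the lagging-strand polymerase delta and Pola1 of polymerase alpha, which starts each new strand with primase. Pole (chr5:110286306-110337474) stood at 62.2, 62.2, 45.4, 59.7, 50.4, 50.5 and 62.9 CPM in control Mki67-positive cells and at 32.9, 47.1, 23.5, 19.8, 8.89, 27.5, 15.01 and 25.9 with KPT-330. Treated levels were below control at each time point, least so at day 1, and the change was −0.90 ± 0.15 (adjusted p = 0.00252). Pola1 (chrX:93304767-93632155) stood at 71.0, 68.5, 45.8, 55.5, 50.4, 62.2 and 78.7 in control and at 32.9, 44.1, 23.5, 26.4, 8.89, 34.4, 40.02 and 18.5 with KPT-330. Every treated library lay below every control library, and the change was −0.85 ± 0.16 (adjusted p = 0.00554). In all cells Pola1 went from 66.6, 45.6, 20.3, 23.4, 22.2, 24.2 and 26.1 to 30.2, 24.3, 10.97, 11.001, 5.21, 4.26, 6.49 and 10.5, again without overlap at any time point, with −1.11 ± 0.16 (adjusted p = 0.000519). Pold1 changed by −0.73 ± 0.16 (adjusted p = 0.0117) in Mki67-positive cells, where the conditions did not overlap either.

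No accessory subunit passed the test in Mki67-positive cells. Their log2 fold changes were −0.68 (Pole2), −0.56 (Prim2), −0.42 (Pold2), −0.38 (Pola2), −0.37 (Pold3) and −0.36 (Prim1), with adjusted p from 0.113 (Prim2) to 0.227 (Prim1). In all cells the primase subunits Prim1 (−0.61 ± 0.15, adjusted p = 0.0098) and Prim2 (−0.55 ± 0.17, adjusted p = 0.0289) fell, as did Pole2 and Pold3, while Pola2 (−0.28 ± 0.16, adjusted p = 0.198) and Pold2 (−0.22 ± 0.11, adjusted p = 0.156) did not pass. Whether catalytic and accessory subunits differed from each other was not tested.

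The clamp and its loader had the medians nearest to 0 of all roles. In Mki67-positive cells 2 of 6 genes fell and in all cells 3 of 6 (medians −0.32 and −0.31). Pcna, the sliding clamp that tethers polymerases to DNA, was at 157, 148, 113, 133, 113, 114 and 131 CPM in control Mki67-positive cells and at 76.2, 124, 95.7, 79.8, 60.0, 75.6, 70.0 and 77.7 with KPT-330. It was lower with KPT-330 at all 6 time points and changed by −0.46 ± 0.12 (adjusted p = 0.0289). In all cells its levels were 149, 112, 64.8, 56.6, 53.9, 50.2 and 50.04 in control and 71.6, 90.5, 67.9, 45.0, 59.7, 35.3, 28.4 and 31.7 with KPT-330. The treated library was the higher one at day 2 and the conditions overlapped at day 3, and the change of −0.21 ± 0.13 (adjusted p = 0.242) did not pass. The loader subunit Rfc3 fell in both fits (−0.53 ± 0.13, adjusted p = 0.0263 and −0.61 ± 0.11, adjusted p = 0.00176), and Rfc2 and Rfc4 fell in all cells (−0.41 ± 0.10, adjusted p = 0.00989 and −0.39 ± 0.12, adjusted p = 0.0312). In Mki67-positive cells these had −0.38 ± 0.13 (adjusted p = 0.0926) and −0.26 ± 0.14 (adjusted p = 0.305), which did not pass. Rfc5 passed in neither fit.

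Rfc1, the large subunit of the loader, was the one member with a positive estimate, and it did not pass. In Mki67-positive cells it was at 166, 144, 119, 165, 204, 190.4 and 142 CPM in control and at 105, 133, 154, 172, 133, 196, 160.1 and 129 with KPT-330, with the treated libraries higher at day 2, lower at days 0.25, 1 and 4 and overlapping control at days 3 and 6. The log2 fold change was 0.05 ± 0.14 (adjusted p = 0.9) there and 0.13 ± 0.14 (adjusted p = 0.501) in all cells. As shown above, its promoter held none of the E2F-type words.

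Single-strand binding protein RPA coats the opened strands. Its subunits Rpa1 (−0.47 ± 0.13, adjusted p = 0.0429) and Rpa2 (−0.65 ± 0.17, adjusted p = 0.031) fell in Mki67-positive cells and also in all cells (−0.42 and −0.71). Rpa3 passed in neither (−0.32 ± 0.21, adjusted p = 0.393 and −0.38 ± 0.18, adjusted p = 0.126). Of the enzymes that finish Okazaki fragments, the ligase Lig1 fell in both fits, by 0.57 ± 0.16 in Mki67-positive cells (adjusted p = 0.0398) and by 0.72 ± 0.18 in all cells. The flap nuclease Fen1 had −0.18 ± 0.15 (adjusted p = 0.544) and −0.11 ± 0.13 (adjusted p = 0.539), so the ligase passed the test and the nuclease did not. A difference between them was not tested.

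Nucleotide supply was called lower mainly in all cells. There 3 of 4 genes fell (median −0.81), and in Mki67-positive cells 1 of 4 (median −0.52). The one was Rrm2, the small subunit of ribonucleotide reductase that is made in S phase, at 112, 73.2, 47.0, 67.1, 46.2, 61.4 and 59.4 CPM in control and 31.5, 61.6, 32.9, 30.8, 19.997, 37.8, 40.02 and 51.8 with KPT-330. Its day 0.25 levels lay furthest apart, and the change was −0.70 ± 0.19 (adjusted p = 0.0365). The large subunit Rrm1 had −0.52 ± 0.17 (adjusted p = 0.0807) in Mki67-positive cells and −0.77 ± 0.15 (adjusted p = 0.00315) in all cells. Tk1, thymidine kinase, had −0.52 ± 0.23 (adjusted p = 0.193) and −0.89 ± 0.27 (adjusted p = 0.0242), and Tyms, thymidylate synthase, passed in neither (−0.35 ± 0.14, adjusted p = 0.153 and −0.33 ± 0.12, adjusted p = 0.0545). Slbp, which binds the stem-loop of histone mRNAs, had −0.76 ± 0.24 (adjusted p = 0.0696) and −0.41 ± 0.16 (adjusted p = 0.0654) and also passed in neither.

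Checkpoint and fork-repair genes had the lowest medians of the roles with more than 1 gene, −0.70 in Mki67-positive cells, where 4 of 7 fell, and −1.07 in all cells, where 6 of 7 fell. Roles were not tested against each other. Brca1 (chr11:101488764-101551955), which protects stalled forks and takes part in homologous recombination, had the smallest p of all members in both fits. In Mki67-positive cells it stood at 43.4, 47.2, 35.7, 39.8, 45.4, 41.3 and 50.7 CPM in control and at 16.9, 25.8, 15.4, 11.7, 6.67, 24.1, 10.005 and 25.9 with KPT-330. Every treated library lay below every control library, and the change was −1.16 ± 0.15 (adjusted p = 0.000303). In all cells it went from 40.3, 27.3, 10.3, 7.73, 9.55, 9.49 and 9.69 to 14.0, 11.9, 3.86, 3.67, 1.64, 1.89, 2.24 and 2.75, without overlap at any time point, and changed by −1.37 ± 0.16 (adjusted p = 0.000176).

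Clspn (chr4:126556935-126593903) encodes claspin, the adaptor through which ATR activates CHK1 at stalled forks. It was at 77.9, 79.9, 43.8, 56.3, 47.9, 72.7 and 68.2 CPM in control Mki67-positive cells and at 28.4, 43.3, 21.4, 20.5, 8.89, 24.1, 47.5 and 37.0 with KPT-330. The treated libraries were the lower ones at every time point, and the change was −0.995 ± 0.16 (adjusted p = 0.00197). In all cells Clspn was at 70.7, 42.8, 12.01, 10.1, 8.84, 14.5 and 10.6 in control and 23.9, 18.8, 4.71, 3.22, 0.596, 1.66, 4.48 and 3.50 with KPT-330, with −1.44 ± 0.21 (adjusted p = 0.000564), the strongest fall of any member there. Its partner kinase Chek1 fell in all cells (−0.64 ± 0.20, adjusted p = 0.026) and did not pass in Mki67-positive cells (−0.39 ± 0.24, adjusted p = 0.363).

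The recombination mediator Brca2 and the resection nuclease Exo1 fell in both fits, by 0.75 and 0.70 in Mki67-positive cells (adjusted p = 0.0118 and 0.0398) and by 0.997 and 1.09 in all cells. The base-excision glycosylases were less uniform. Ung, which removes uracil, passed in neither fit (−0.58 ± 0.27, adjusted p = 0.214 and −0.51 ± 0.23, adjusted p = 0.117). Neil3, which acts on oxidised bases and crosslinks in replicating cells, fell in all cells (−1.07 ± 0.30, adjusted p = 0.0178) and not in Mki67-positive cells (−0.62 ± 0.32, adjusted p = 0.265).

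**Figure D2:**
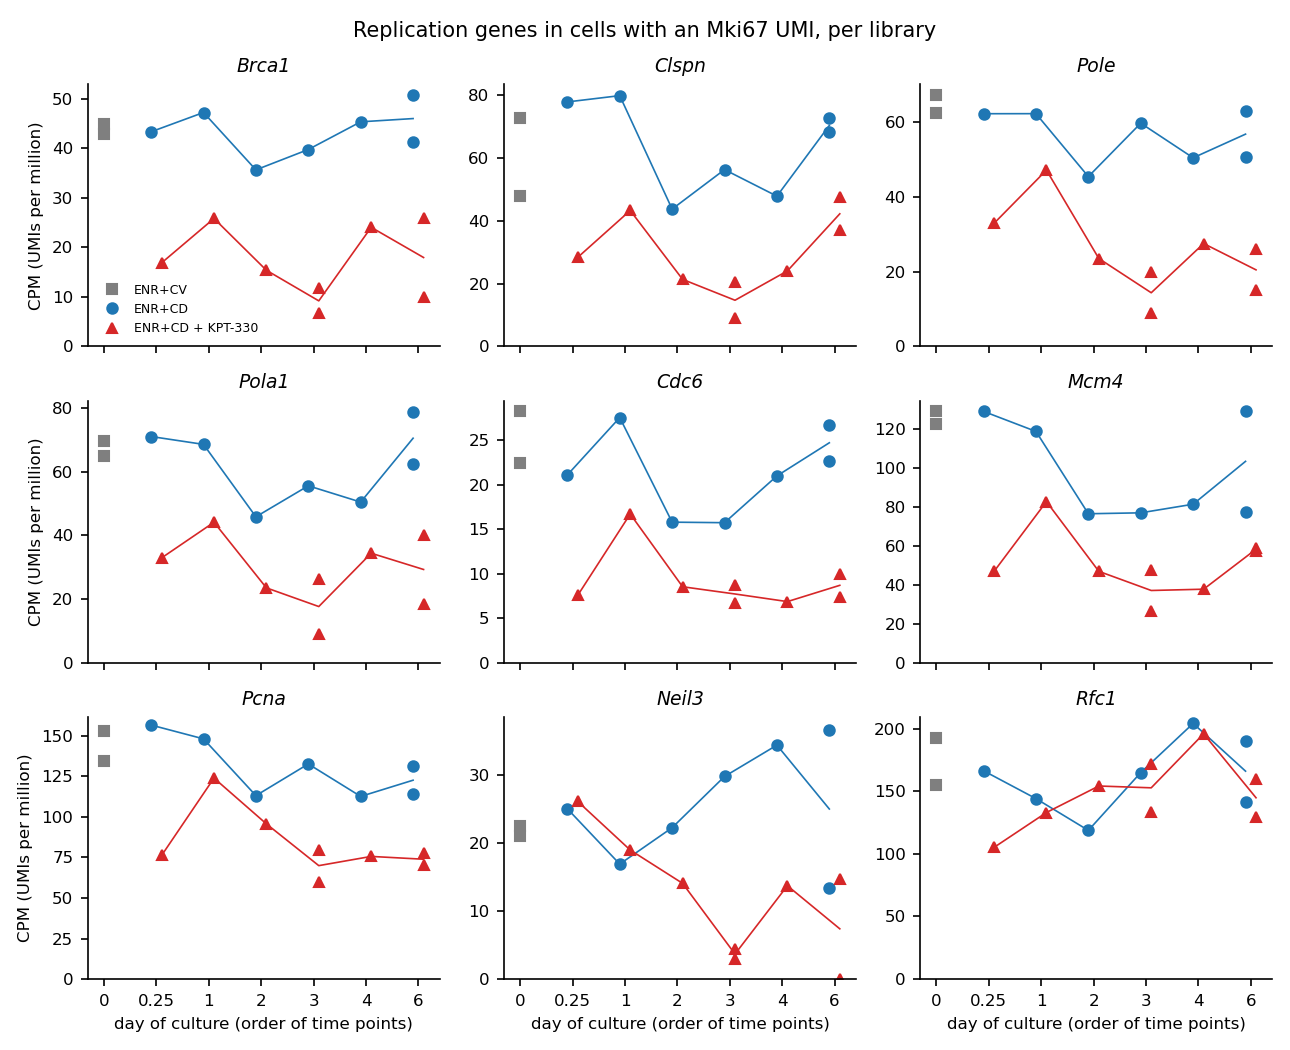
Levels of 9 replication genes in Mki67-positive cells (y axis, CPM, from 0) by day of culture (x axis, in order and not to scale), 1 point per library and lines through the mean of each condition. ENR+CV is grey, ENR+CD blue and ENR+CD with KPT-330 red. Red points of the first 7 genes lie below blue at every day, Neil3 points are close at days 0.25 and 1 and overlap at day 6, and Rfc1 points mix.

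By time point, the summed level of the members in Mki67-positive cells differed most between treatment and control at day 0.25 and at days 3 to 6. Members that were lower with KPT-330 by the ratio of pooled counts numbered 46 at day 0.25, 37 at day 1, 43 at day 2, 48 at day 3, 44 at day 4 and 47 at day 6. With 1 library per condition at most days these counts have no replicate check. The share of all genes lower at each day was not counted either, so the counts are descriptions only. At day 6, with 2 libraries each, both KPT-330 libraries lay below both controls for 38 of 48 members. The share of all genes that did so at day 6 alone was not counted, so this number has no background. At all 6 time points at once, 24 of 48 members were lower without overlap of libraries, against 8.14% of all genes tested, and in all cells 39 of 48, against 19.9%.

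The summed level of the 48 genes in Mki67-positive cells was 3968, 3341, 2488, 2747, 2954, 2848 and 3583 CPM in the control libraries and 2078, 2829, 1837, 1628, 951, 1869, 1776 and 2020.1 in the KPT-330 libraries. ENR+CV libraries were at 3601 and 4352. Control levels were lower at day 2 than at day 0.25, and treated levels were below control at every time point. The log2 ratio of pooled sums was −0.93 at day 0.25, −0.24 at day 1, −0.44 at day 2, −0.91 at day 3, −0.66 at day 4 and −0.67 at day 6. The second KPT-330 library of day 3 was the lowest of all.

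Mitosis genes were measured in the same cells for comparison (40 genes such as Top2a, Plk1 and Aurkb). At day 0.25 their summed level was 4419.6 CPM in control and 4320.2 with KPT-330, while that of the replication genes was 3968 and 2078. Replication UMIs per mitosis UMI were thus 0.898 and 0.481 at that day, and 1.16 and 0.805 at day 1. At day 2 the order was the other way, with 0.805 in control and 0.854 with KPT-330. It stayed so at days 3 and 4, with 0.917 in control against 1.18 and 1.08 at day 3 and 0.927 against 1.09 at day 4. The day 6 values overlapped. No test of the ratio was made.

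**Figure D3:**
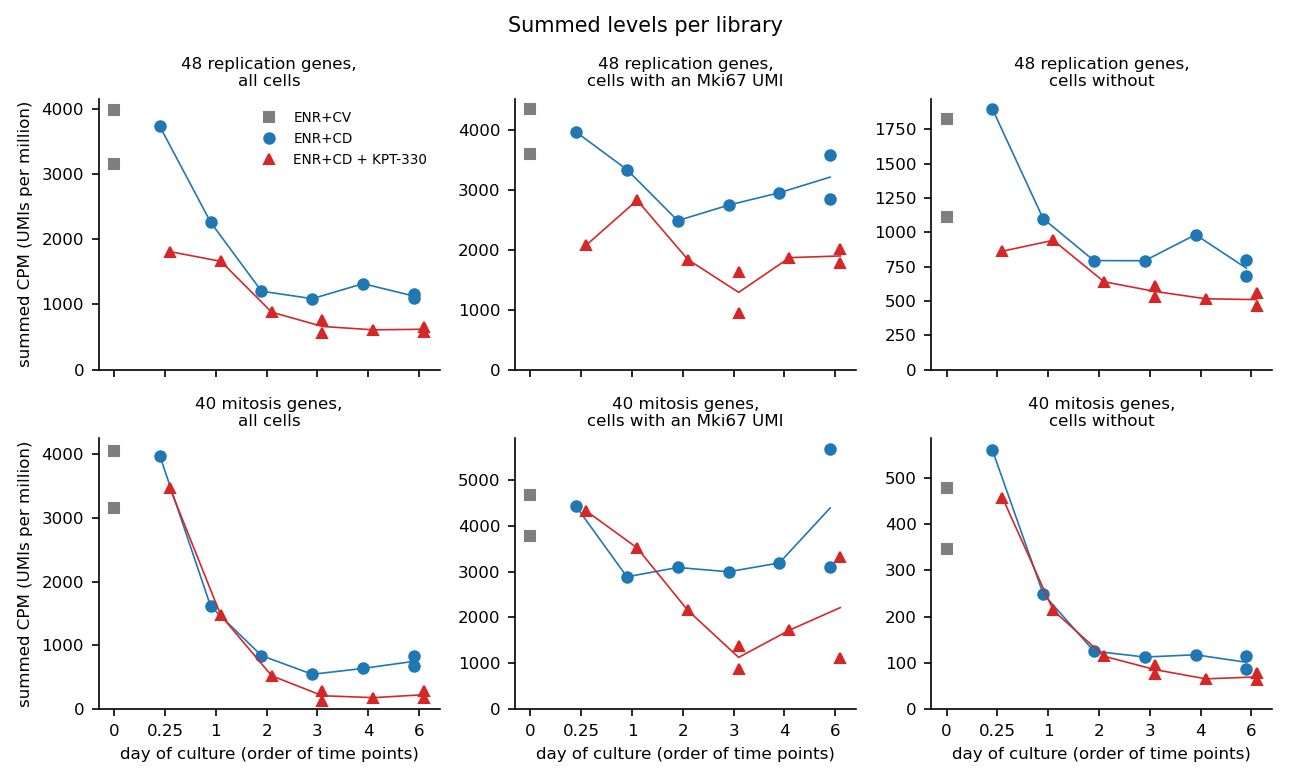
Summed levels (y axes, CPM, from 0) of the 48 replication genes (top) and of 40 mitosis genes (bottom) in all cells, Mki67-positive cells and cells without an Mki67 UMI, by day of culture (x axis, in order and not to scale), 1 point per library and lines through the mean of each condition. At day 0.25 in Mki67-positive cells the replication sums lie at 3968 and 2078 while the mitosis sums lie at 4419.6 and 4320.2.

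Over the time course, 1 of 40 mitosis genes (Pbk) fell in Mki67-positive cells (median −0.37) and 33 of 40 in all cells (median −0.74). The corresponding counts of the replication genes were 22 and 37 of 48. In the all-cell comparison both lists therefore had many lower genes, and in Mki67-positive cells the mitosis median was also below 0. One value over all days can hide a change with time. Between days 3 to 6 and days 0.25 to 2, the effect in Mki67-positive cells differed by a median of −0.86 for the mitosis genes. For the replication genes it was −0.05, and no gene of either list was called. Whether the lists differed was not tested.

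A further 98 genes of replication and fork protection, none of them among the 48, were read from a second list. In Mki67-positive cells 12 of 96 tested fell and none rose (median −0.39), and in all cells 43 of 97 fell and none rose (median −0.33). The 5 with the smallest p in Mki67-positive cells were Uhrf1 (−1.11 ± 0.17, adjusted p = 0.00124), which brings the maintenance methyltransferase to new DNA, Pclaf (−0.82 ± 0.14, adjusted p = 0.00252), a PCNA-binding factor, Tipin (−0.73 ± 0.14, adjusted p = 0.00586), a fork-protection partner of Timeless, Dnmt1 (−0.74 ± 0.15, adjusted p = 0.00677), that methyltransferase, and Dut (−0.78 ± 0.16, adjusted p = 0.00845), which keeps uracil out of DNA. In all cells they were Dnmt1 (−0.80), Dut (−0.86), the histone chaperone gene Nasp (−0.65), Uhrf1 (−1.48) and Timeless (−1.29), with adjusted p from 0.000181 (Dnmt1) to 0.000799 (Timeless).

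The share of Mki67-positive cells was itself lower with KPT-330. Control and treated libraries had 83.5% and 69.9% at day 0.25. The values were 42.3% and 29.3% a day later and 22.9% and 17.6% on day 2. At day 3 it was 13.7% in control and 13.6% and 6.21% with KPT-330, and at day 4 it was 14.4% and 5.34%. The day 6 libraries had 17.8% and 11.4% in control and 8.42% and 4.80% with KPT-330. Pooled by time point, treated cells had the lower share at 6 of 6 time points. The log2 odds ratio averaged −0.98 ± 0.42 (SD, n = 6), with p = 0.03125 in a two-sided exact sign-flip permutation test. That is the smallest p that 6 time points allow. It takes time points as independent units and holds no spread between libraries, which were pooled. The ENR+CV libraries had 77.4% and 83.3%.

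Free RNA can give a cell an Mki67 UMI that is not its own, so the share was also read in cells that should not cycle. These were the 6607 cells with at least 5% of UMIs from the Paneth genes. At days 0.25 and 1 that class held 18 to 33 cells per library, and its Mki67-positive share at day 0.25 was 66.7% untreated and 68.0% treated, against 12.1% and 27.3% at day 1. At day 2 it was 17.8% in control and 17.2% with KPT-330. It was 13.5% in control and 14.6% and 8.20% with KPT-330 at day 3, 13.4% and 5.45% at day 4, and 15.5%, 7.28%, 8.79% and 4.43% at day 6. In each treated library, and in control at days 3 and 4, the share over all cells was within 2 percentage points of that in the Paneth-rich cells. In the other control libraries it was higher by more than 2 points. In all Mki67-positive cells of the treated libraries from day 3 to day 6, the 40 mitosis genes summed to 1377, 878, 1722, 1116 and 3311 CPM. In cells of the same libraries without an Mki67 UMI they summed to 94.3, 76.5, 65.4, 76.98 and 62.2. The part of free RNA in the shares was not tested. Median depth over the differentiating libraries was 2676 to 8463 UMIs per cell in all cells and 2711 to 8622 in the Paneth-rich class. Outside that class treated cells also had the lower share at 6 of 6 time points, and the log2 odds ratio averaged −1.17 ± 0.47 (SD, n = 6) with p = 0.03125 in the same exact permutation test. With every cell thinned to 1500 UMIs, leaving out 235 shallower cells, the mean was −0.89 ± 0.38.

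**Figure D4:**
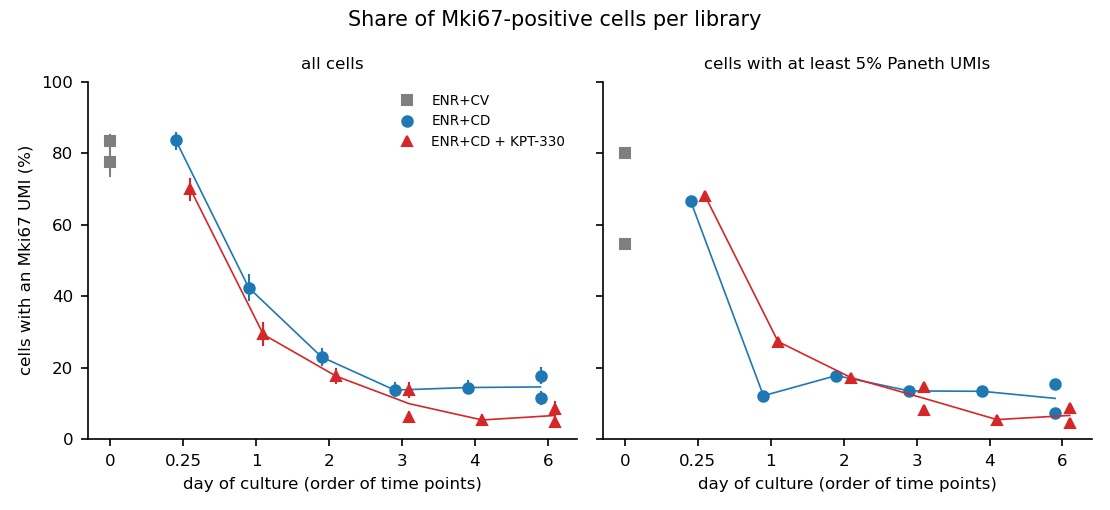
Share of cells with an Mki67 UMI (y axis, percent) in all cells (left, with 95% Wilson intervals that cover counting error only) and in cells with at least 5% of UMIs from Paneth genes (right), by day of culture (x axis, in order and not to scale), 1 point per library. In all cells the red KPT-330 points lie at or below blue control at every day, and from day 3 on the panels have similar values, between 4.43% and 17.8%.

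The members' fall in Mki67-positive cells was read again in stricter sets of cells, of which the set outside the Paneth-rich class and that of days 0.25 to 2 were chosen after the data were seen. Paneth-rich cells made up 59 of 202 Mki67-positive cells in control at day 3, and 91 of 153 and 52 of 85 with KPT-330. At day 4 they were 87 of 223 in control and 45 of 68 with KPT-330. At day 6 they were 103 of 225 and 47 of 158 in control, and 67 of 77 and 29 of 48 with KPT-330. Among Mki67-positive cells outside the Paneth-rich class, the median log2 fold change was −0.52 (−0.022 over all genes). All 48 estimates were negative, but only Brca1 and Clspn passed the test, among 11 genes called lower. The 2 KPT-330 libraries of day 6 held fewer than 20 such cells and were left out of that fit. Summed levels of the 48 genes in those cells at day 6 were 4329 and 4663 CPM in control and 6660.4 and 3655 with KPT-330, so the conditions overlapped there. At the earlier days they were 3993, 3373, 2769, 3527 and 4244 in control and 2077, 2874, 2056, 2523, 1062 and 3562 with KPT-330, lower at each of the 5 time points.

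With at least 2 Mki67 UMIs the median was −0.48, all 48 estimates were negative, and Brca1, Clspn and Pole passed. Restricted to days 0.25 to 2, the median was −0.53, with all estimates negative and 13 members called. With cells thinned to 1500 UMIs, 34 members could be tested, of which Mcm5, Mcm6 and Rrm2 passed, and the median was −0.45. Without day 0.25 the count was 9 and the median −0.44, and without day 3 they were 12 and −0.50. Leaving out a day also leaves fewer libraries. Over all genes, 16 were lower with at least 2 Mki67 UMIs, 79 in days 0.25 to 2 and 22 in thinned cells. Without day 0.25 the number was 167, and without day 3 it was 86. The all-gene medians were −0.011, −0.002, −0.009, −0.016 and −0.012 in that order. Shares of all genes tested are not given for these settings. Brca1 and Clspn each passed in 24 of 25 settings of this comparison, the exception being the thinned cells, no member passed in all 25, and 10 passed in none. In all cells, 18 members passed in all 22 settings and Gins3 and Rfc1 in none.

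**Figure D5:**
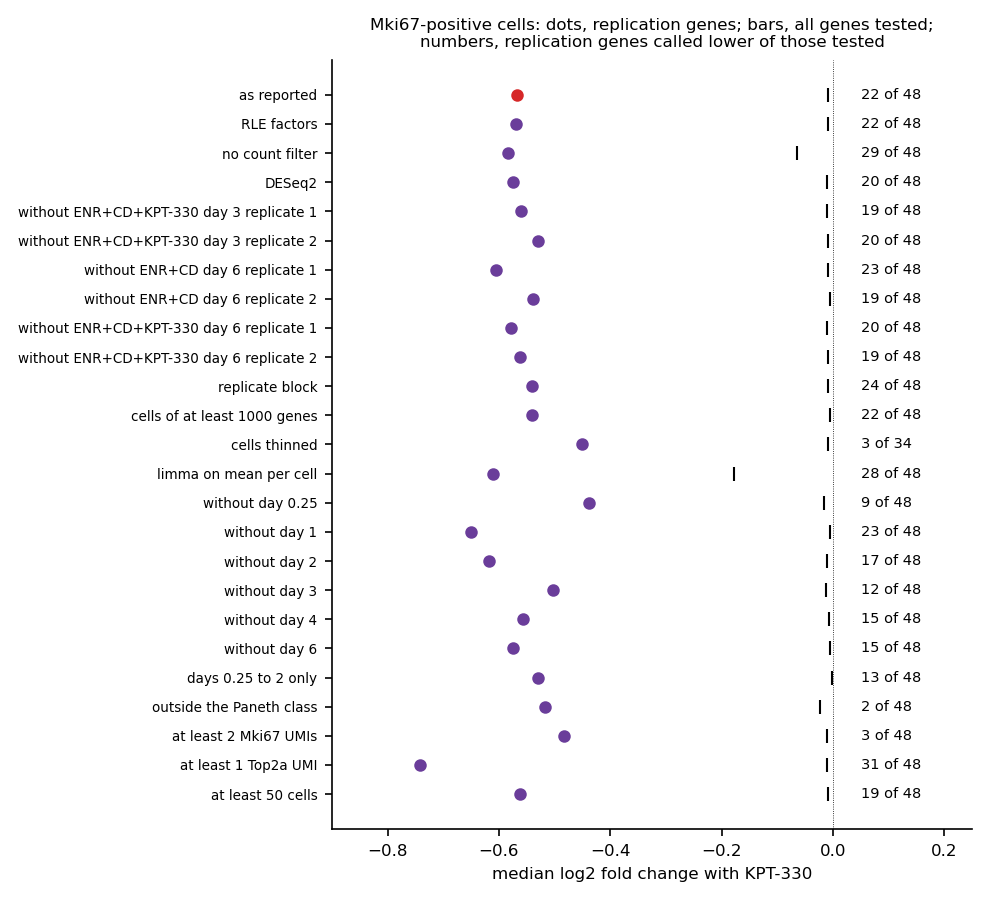
Median log2 fold change with KPT-330 in Mki67-positive cells (x axis) over the replication genes (dots) and over all genes tested (bars) under each processing setting (rows), with the number of replication genes called lower of those tested at the right. The dots lie between −0.74 and −0.44 in every row, while the count runs from 2 to 31.

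Cells without an Mki67 UMI also had less replication mRNA with KPT-330. Their summed level was 1901, 1100.1, 794, 793, 983, 682 and 796 CPM in control and 863, 942, 639.8, 609, 529.6, 516, 459.7 and 559.9 with KPT-330, below control at every time point. Whether the response differed between the 2 classes of cells was tested in 1 fit over both, with the library as a factor. That fit held no term for a difference between the classes that changes with the day. In simulated counts of its design edgeR recovered 78% of 2-fold and 94% of 4-fold changes, so smaller differences could be missed. None of the 48 members differed by edgeR's adjusted p (5 did at an unadjusted p below 0.05, and DESeq2 called none), and over all genes 0.0169% were lower. The members with the smallest p, all more negative in Mki67-positive cells, were Pcna (−0.60 ± 0.17, adjusted p = 0.469), Tyms (−0.63 ± 0.21, adjusted p = 0.481) and Prim2 (−0.81 ± 0.31, adjusted p = 0.496). Pcna in cells without an Mki67 UMI stood at 90.9, 72.9, 49.5, 43.1, 41.9, 35.0 and 38.0 CPM in control and at 55.3, 70.0, 60.9, 38.8, 59.7, 32.3, 24.3 and 28.4 with KPT-330, with the treated library above control at day 2 and 1 of 2 above it at day 3. The median of the members was −0.16, with 39 of 48 estimates negative.

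Tyms in Mki67-positive cells was at 94.8, 91.7, 60.8, 72.9, 69.7, 75.6 and 129 CPM in control and at 88.0, 79.0, 52.1, 47.6, 28.9, 44.7, 30.01 and 51.8 with KPT-330. In cells without an Mki67 UMI it was at 29.2, 24.0, 16.5, 12.2, 15.1, 12.6 and 12.7 and at 27.6, 22.4, 15.8, 14.3, 14.9, 5.85, 8.85 and 13.9. The treated libraries thus lay below control at every time point in the first class, and on both sides of control in the second. Prim2 in Mki67-positive cells was at 24.2, 20.5, 14.99, 23.2, 17.6, 15.9 and 29.7 in control and 16.3, 19.0004, 11.96, 8.06, 6.67, 6.87, 10.005 and 7.3997 with KPT-330, and in the other cells at 4.33, 4.64, 4.11, 4.99, 4.81, 2.39 and 3.88 and 12.8, 6.07, 2.89, 2.49, 1.44, 3.56, 1.97 and 3.21. In the opposite direction the smallest p belonged to Mcm3 (0.41 ± 0.32, adjusted p = 0.775), Mcm5 (0.33 ± 0.33, adjusted p = 0.835) and Mcm4 (0.24 ± 0.24, adjusted p = 0.839), all of the helicase ring. Mcm3 stood at 137, 113, 91.2, 87.0, 97.5, 93.1 and 119 in control Mki67-positive cells and at 60.7, 79.0, 53.4, 49.1, 24.4, 55.0, 80.04 and 66.6 with KPT-330, and in the other cells at 80.1, 32.5, 21.0, 18.6, 24.7, 12.9 and 23.5 and 25.7, 26.6, 8.47, 6.94, 5.11, 4.07, 5.16 and 8.31.

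Mcm5 levels in Mki67-positive cells were 166, 132, 85.9, 104, 118, 106 and 119 CPM in control and 74.5, 97.3, 58.5, 58.6, 17.8, 58.4, 57.5 and 74.0 with KPT-330, while in cells without an Mki67 UMI they were 64.9, 29.9, 14.5, 15.1, 21.8, 8.47 and 16.8 and 21.7, 24.7, 5.47, 6.81, 3.19, 2.54, 2.71 and 6.70. Those of Mcm4 in the latter cells were 94.1, 50.6, 27.6, 27.3, 28.7, 20.2 and 22.3 and 19.7, 27.1, 17.2, 12.6, 7.99, 5.34, 9.59 and 12.9. None of these ring genes passed the test of a difference between the classes.

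The effect of KPT-330 was also compared between days 3 to 6 and days 0.25 to 2. No member differed in all cells (5 at an unadjusted p below 0.05, and 1 by DESeq2, with 0% of all genes lower) or in Mki67-positive cells (3 unadjusted, none by DESeq2, with 0.00954% of all genes lower). Neil3 had the smallest p in both, with a difference of −2.01 ± 0.38 (adjusted p = 0.138) in all cells and −1.99 ± 0.59 (adjusted p = 0.489) in Mki67-positive cells. Its levels in Mki67-positive cells were 25.1, 16.9, 22.3, 29.8, 34.4, 13.4 and 36.7 CPM in control and 26.1, 19.0004, 14.1, 2.93, 4.44, 13.7, 0 and 14.8 with KPT-330. Treated and control libraries were close at days 0.25 and 1, treated ones lay below control at days 2, 3 and 4, and at day 6 the conditions overlapped.

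In all cells Neil3 was at 22.4, 8.75, 5.56, 4.74, 5.99, 2.98 and 4.73 CPM in control and at 20.6, 7.23, 3.00, 0.556, 0.596, 0.947, 0.448 and 0.999 with KPT-330, with both conditions near each other at days 0.25 and 1 there as well. Exo1 (−0.86 ± 0.39, adjusted p = 0.475) and Pole (−0.69 ± 0.32, adjusted p = 0.477) came next in all cells. Exo1 was at 41.5, 18.1, 7.91, 4.86, 7.56, 7.08 and 6.76 in control and 20.3, 14.5, 3.77, 2.11, 0.596, 1.18, 1.79 and 2.00 with KPT-330, and Pole at 58.0, 37.5, 14.5, 13.3, 12.1, 12.1 and 12.6 and 27.4, 22.8, 6.86, 4.11, 1.49, 3.55, 3.58 and 3.50. Both were lower with KPT-330 at every time point.

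In the other direction, Pold2 (0.56 ± 0.17, adjusted p = 0.309), Fen1 (0.50 ± 0.23, adjusted p = 0.475) and Rfc1 (0.50 ± 0.25, adjusted p = 0.495) had the smallest p in all cells. Pold2, the small subunit of polymerase delta, was at 103, 62.7, 37.7, 27.9, 38.9, 28.7 and 34.7 CPM in control and 60.8, 44.2, 24.5, 27.9, 23.7, 31.0, 17.2 and 26.0 with KPT-330, with its widest gap at day 0.25. Fen1 was at 84.6, 50.5, 36.5, 34.4, 34.2, 31.4 and 32.7 in control and at 39.8, 43.7, 31.6, 31.4, 26.8, 25.8, 25.3 and 28.2 with KPT-330, and Rfc1 at 161, 124, 104, 129, 189, 142 and 119 and at 102, 105, 109.9, 145, 108, 152, 139.5 and 131. Day 0.25 again held a wide gap, with the treated library the lower one.

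In Mki67-positive cells Rpa3 (−1.01 ± 0.40, adjusted p = 0.53) and Tyms (−0.58 ± 0.26, adjusted p = 0.592) followed Neil3. Rpa3, the smallest RPA subunit, was at 18.3, 23.6, 19.05, 18.2, 20.2, 19.2 and 28.0 CPM in control and at 19.1, 18.2, 19.2, 10.3, 8.89, 3.44, 5.002 and 11.1 with KPT-330, with the treated library above control at days 0.25 and 2. Among the positive differences Orc6 (0.51 ± 0.32, adjusted p = 0.709), Ung (0.81 ± 0.52, adjusted p = 0.712) and Fen1 (0.37 ± 0.30, adjusted p = 0.778) had the smallest p, and none passed. Orc6 was at 50.6, 45.7, 32.4, 31.5, 38.6, 46.8 and 45.5 in control and 29.2, 40.3, 17.9, 26.4, 11.1, 20.6, 40.02 and 55.5 with KPT-330. Ung was at 37.7, 31.9, 16.6, 20.7, 31.1, 20.05 and 10.5 and 8.72, 26.6, 14.1, 13.9, 24.4, 30.9, 12.5 and 7.3997, and Fen1 at 90.7, 78.7, 75.4, 78.7, 73.9, 75.2 and 107 and 46.1, 83.6, 61.1, 63.0, 44.4, 61.9, 90.0 and 70.3. Each was lower with KPT-330 at day 0.25 and overlapped control at day 6. In simulated data of this design edgeR recovered 41% of 2-fold and 80% of 4-fold changes in all cells, and 26% and 78% in Mki67-positive cells, so a moderate difference between early and late days would often be missed.

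Without KPT-330, replication genes declined as organoids differentiated. Across the 9 untreated libraries, ordered by time point from ENR+CV at day 0 to ENR+CD at day 6, 47 of 48 members fell in all cells, against 23.5% of all genes. The exception was Rfc1 (−0.01 ± 0.04, adjusted p = 0.834 per step from one time point to the next). The median slope was −0.34 per step. Tk1 had −0.53 ± 0.07 (adjusted p = 0.000332), and the members with the smallest p were Cdt1 (−0.36 ± 0.04, adjusted p = 0.000154), Prim1 (−0.43 ± 0.06, adjusted p = 0.000245) and Pole (−0.40 ± 0.05, adjusted p = 0.000257).

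Prim1, the catalytic subunit of the primase that makes RNA primers, went over the untreated libraries through 73.4, 85.9, 77.3, 50.7, 19.5, 13.1, 20.7, 14.1 and 15.1 CPM, the first 2 being ENR+CV. Cdt1 went through 57.1, 85.9, 57.0, 39.7, 18.7, 18.2, 20.8, 16.5 and 13.5 and Pole through 52.4, 60.3, 58.0, 37.5, 14.5, 13.3, 12.1, 12.1 and 12.6. In each case most of the fall came between day 0.25 and day 2, and later libraries varied around a low level. The untreated libraries of days 0.25 and 1 carry replicate number 1 and those of days 2 to 4 number 2. The trend held no term for that number, so its part in this fall cannot be told apart from that of time. The 40 mitosis genes all fell as well, with a median slope of −0.45.

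Within Mki67-positive cells the decline was small. Of the 48 members 7 fell, none rose and 41 did not pass. That share is close to the 12.5% of all genes that fell, so the count sets the members little apart. The median slope was −0.07 per step, with 40 of 48 estimates negative. Outside the Paneth-rich class it was −0.01, with 28 of 48 negative. The 7 that fell in the main fit were Pold2, Prim1, Rrm2, Mcm6, Cdt1, Mcm3 and Ung, with slopes from −0.19 (Pold2) to −0.10 (Mcm3). Pold2 went through 94.1, 125, 109, 80.7, 64.0, 51.4, 51.2, 52.2 and 54.2 CPM (−0.19 ± 0.03, adjusted p = 0.00125), and Prim1 through 82.6, 92.3, 81.8, 79.9, 47.4, 35.6, 52.1, 41.3 and 45.5 (−0.18 ± 0.04, adjusted p = 0.00415). Both were highest up to day 1 and lower from day 2 on. Rrm2 went through 119, 98.8, 112, 73.2, 47.0, 67.1, 46.2, 61.4 and 59.4 (−0.17 ± 0.04, adjusted p = 0.016). Brca1 (0.01 ± 0.03, adjusted p = 0.92) did not pass, and neither did Clspn. Of the 8 members with a positive slope, none of which passed, Neil3 (0.05 ± 0.06, adjusted p = 0.573), Rfc1 (0.02 ± 0.04, adjusted p = 0.717) and Chek1 (0.03 ± 0.06, adjusted p = 0.753) had the smallest p. Rfc1 went through 155, 192, 166, 144, 119, 165, 204, 190.4 and 142 and Chek1 through 14.2, 25.02, 25.4, 19.7, 15.4, 11.6, 19.3, 24.2 and 29.7, without an order in time. The count depended on single libraries: it was 3 without the first or the second ENR+CV library and 13 without the second day 6 library.

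The class was checked in the untreated libraries, where Mki67-positive and Mki67-negative cells were compared within library. All 48 members were higher in the Mki67-positive cells, against 21.7% of all genes. The treated libraries were not in this fit, so it does not check the class there. The median log2 difference was 1.74. Neil3 had 5.94 ± 0.32 (adjusted p = 5.83e-10), Tk1 4.56 ± 0.25 (adjusted p = 7.60e-10) and Fen1 1.56 ± 0.09 (adjusted p = 1.43e-09). Neil3 was at 21.0, 22.6, 25.1, 16.9, 22.3, 29.8, 34.4, 13.4 and 36.7 CPM in Mki67-positive cells and at 1.23, 0, 2.16, 0, 0.257, 0.293, 0.172, 0.498 and 0 in Mki67-negative cells of the same libraries. Tk1 was at 32.2, 43.7, 46.9, 26.0, 23.5, 29.8, 26.0, 19.2 and 45.5 and at 3.69, 3.77, 4.33, 1.26, 1.29, 1.03, 0.687, 0.299 and 0.259, and Fen1 at 92.4, 127, 90.7, 78.7, 75.4, 78.7, 73.9, 75.2 and 107 and at 39.3, 39.6, 37.9, 20.2, 24.2, 26.6, 26.1, 20.9 and 21.7. In each library all 3 genes were higher in the Mki67-positive cells. At the other end, Rfc1 (0.35 ± 0.07, adjusted p = 0.000601) and Ung (0.62 ± 0.17, adjusted p = 0.00664) differed least. By role, the clamp and its loader had a median of 1.11 and checkpoint and fork-repair genes one of 3.46. The 40 mitosis genes had 4.70. Cells with an Mki67 UMI were also deeper, with a median of 5297 UMIs against 4484.

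Set beside the promoters shown above, the members that fell in Mki67-positive cells held an E2F-type word in 11 of 20 promoters (55.0%), and those that did not fall in 5 of 25 (20%). The other 98 replication and fork genes held one in 18 of 93 (19.4%). Counting only matches before the start, the shares were 35% and 8%, against 1.86% of all promoters. Brca1, Pcna, Mcm2, Rrm2, Rpa1 and Rpa2 fell and had no match in the window, and Orc1, Gins3, Cdt1, Pold3 and Pole2 had a match and did not pass in Mki67-positive cells. Promoters were at hand for 17 of the 22 members that fell and 23 of the 26 that did not, some with more than 1. By gene, 11 of those 17 and 5 of those 23 held a word. These are descriptions of 4 words in a window, with no test.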

How the data were processed

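The authors deposited UMI counts per gene and cell for 17 libraries, not normalized. Per the labels and the study's methods these were Seq-Well S3 libraries converted with bcl2fastq and aligned with STAR to mm10 in the Drop-seq pipeline, with UMIs collapsed. A merged table of the authors was used only for the names of the cells kept (19877 of 26229 barcodes), and the 48 genes were matched by symbol. Counts were summed per library over all cells, cells with at least 1 UMI of Mki67 and cells without one. Doublets were not called here.

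Sums of at least 20 cells were tested with edgeR 4.0.16 (quasi-likelihood, TMM, filterByExpr) in R 4.3.3, with time point and treatment as terms and p adjusted by Benjamini-Hochberg over every tested gene (threshold 0.05). The KPT-330 effect was also compared between classes of cells (library as a factor) and between days 3 to 6 and days 0.25 to 2. Untreated libraries were fitted against the order of time points. The share of Mki67-positive cells was tested with an exact sign-flip permutation test over log2 odds ratios with 0.5 cells added. Alternatives were DESeq2 1.42.0, limma 3.58.1 on log2 of the mean UMIs per 10000 plus 0.1, RLE factors, no filter, other cells, thinned cells and libraries or time points left out.

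The 48 genes and the other lists were chosen with earlier results of these data known. Any of the 48 may be named. Levels per library are given for the 6 members in each direction with the smallest p past the threshold in the Mki67-positive and all-cell comparisons and the 3 in each direction in every other one, and Gins1 is given as a range, added after its values were seen. Of the other replication and fork genes, the 5 with the smallest p are named. In simulated counts with 200 changed genes, edgeR recovered 88% of 2-fold and 100% of 4-fold changes over 10485 genes in Mki67-positive cells, and 80% and 99% over 12812 genes in all cells. Intervals on shares cover counting error only. Drop-seq tool versions differ between the study's texts and are not given here.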

Additional observations from a re-analysis of the deposited data

How the results depend on the processing

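All 8 comparisons were refitted under other settings, and no named gene changed sign with a call. Of the 1138 refits of single genes in the Mki67-positive comparison, 976 kept their side of the threshold, 130 lost the call and 32 gained one. In the all-cell comparison the numbers were 901, 88 and 18 of 1007. The count of replication genes lower with KPT-330 in Mki67-positive cells, 22 in the main fit, was 3 with cells thinned to 1500 UMIs, 13 with days 0.25 to 2, 2 outside the Paneth-rich class and 3 with at least 2 Mki67 UMIs. It ran from 9 (without day 0.25) to 23 when a library or a time point was left out, with 12 without day 3. Thinning and the higher limits leave fewer cells and genes, and the cause of the other moves was not tested. In all cells the count of 37 became 21 with days 0.25 to 2.

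Without the filter on low counts, 2 members (Pcna and Tyms) differed between Mki67-positive and Mki67-negative cells, and 1 (Neil3) between late and early days, in all cells and in Mki67-positive cells alike. DESeq2 also called 1 member (Neil3) between late and early days in all cells. The count of 7 members called lower over time in untreated Mki67-positive cells became 3 to 13 when a library was left out. It was 2 with the day as a number and 2 outside the Paneth-rich class. The trend in all cells and the difference between the classes kept their counts within 1.5 times under every setting run. The share of Mki67-positive cells was lower at 6 of 6 time points under each of 11 alternatives (mean log2 odds ratio −1.23 to −0.88).

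With the replicate number as a block, 37 members were lower in all cells and 24 in Mki67-positive cells. The labels tie no number to a shared batch, so the numbers were not taken to pair libraries. Over the 2 pairs of day 6, same-numbered libraries did deviate together, with a correlation of 0.403. What they share was not tested. The numbers also go with the day: days 0.25 and 1 had number 1 only, and days 2 and 4 number 2 only. No block was fitted between Mki67-positive and Mki67-negative cells, where the library is already a factor.

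Counts over all genes moved more. In all cells, 1841 genes were higher and 1820 lower, against 501 and 4427 by limma on the mean per cell, under which the median of all genes was −0.15 (−0.18 in Mki67-positive cells), 1120 and 972 without day 3, and 374 and 253 with days 0.25 to 2. The higher genes were 1187 without day 4 and 1188 outside the Paneth-rich class, and the lower ones 971 with thinned cells. In Mki67-positive cells, 435 were higher and 185 lower, against 110 and 616 by limma, 112 and 22 thinned, 254 and 97 without day 2, 246 and 86 without day 3, 199 and 79 with days 0.25 to 2, 54 and 11 outside the Paneth-rich class, 60 and 16 with 2 Mki67 UMIs, and 667 and 373 with Top2a. The lower genes were 104 without day 4, 103 without day 6 and 463 without a filter. Depth limits these comparisons: the smallest library held 48 Mki67-positive cells.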

Other observations

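E2F factors and pocket proteins, the regulators of many replication genes, were read from a list of 13 genes, all tested. In all cells 5 fell with KPT-330, 2 rose and 6 did not pass, against 14.2% and 14.4% of all genes. Those that fell were E2f7 (−1.35 ± 0.26, adjusted p = 0.00278) and E2f8 (−0.74 ± 0.19, adjusted p = 0.0109), repressors that act late in S phase, the activator E2f3 (−0.42 ± 0.14, adjusted p = 0.0424), the E2F partner Tfdp1 (−0.44 ± 0.15, adjusted p = 0.0457) and the pocket protein Rbl1 (−0.34 ± 0.11, adjusted p = 0.0299). Rb1 (0.64 ± 0.14, adjusted p = 0.00576) and Rbl2 (0.24 ± 0.07, adjusted p = 0.0211), the pocket proteins that hold E2F in check in resting cells, rose. In Mki67-positive cells E2f7 fell (−0.97 ± 0.24, adjusted p = 0.0231), none rose and 12 did not pass, with a median of −0.34 over the list. In the untreated libraries 10 of the 13 fell with time in all cells and 4 in Mki67-positive cells. The list was chosen with earlier results of these data known.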
